A study of Mus musculus with 2 samples.

Results

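This section describes 40 genes of glycolysis and of the response to low oxygen in mouse limb-mesenchymal organoids, chosen by name and matched by gene symbol to the authors' comparison of distal with proximal regions. Of these, 39 were among the 13916 protein-coding genes listed, and Car9, a carbonic anhydrase induced by low oxygen, had no line and counts as not detected. The organoids were cultures of embryonic limb mesenchymal cells of the Slc:ICR strain, kept for 48 h in medium with Fgf8b and Wnt3a and collected on day 2. In photo-isolation chemistry, mRNA in a section is reverse transcribed from caged primers, and only the cDNA of areas lit with ultraviolet light is released and sequenced. From sections of 5 organoids, which came from 4 cultures, 5 distal and 5 proximal regions were lit, each with its own barcode. Both sides shared strain, medium and day. All 5 areas of one side went into 1 library, so the side and the library cannot be told apart, and the spread between regions is a spread within 1 library. The p-values below measure only that spread.

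Glycolysis splits glucose into pyruvate in the cytosol, and lactate dehydrogenase then turns pyruvate into lactate where it does not enter the mitochondrion. Hypoxia-inducible factor (HIF) is a pair of proteins, an oxygen-sensitive alpha subunit such as the product of Hif1a and a stable partner, the product of Arnt. With oxygen present, prolyl hydroxylases of the Egln family mark the alpha subunit for removal by the Vhl protein, and without it the pair binds DNA at a short core and raises transcription of glucose transporters, glycolytic enzymes, Vegfa and other targets. In the limb bud the mesenchyme just under the surface ectoderm lacks vessels, and Hif1a and Vegfa are known for their part in the growth of limb cartilage.

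In the authors' deposited table, a DESeq2-style comparison, 0 of the 39 listed genes had an adjusted p under 0.05, where 0.977% of all genes did (136 of 13916). At an unadjusted p under 0.05 there were 2 of the 39, P4ha2 and Hif1a, or 5.13%, against 6.07% of all genes. Both had the higher value in proximal, the direction of 3.51% of all genes at that limit. The median log2 change (distal over proximal) of the 39 was 0.08 in the authors' deposited table, beside 0.07 over all genes, and 24 were above 0 and 15 below it. Over all genes 54.5% were above 0. Centred on the median of all genes, 20 of the 39 were above 0 and 19 below it, with Pfkl, Hk2, Pkm and Vegfa changing sign. The share of the 39 past either limit and their median were near those of all genes.

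The regions were shallow, and this sets what could be seen. Size factors, the relative depths by which the authors divided the counts, summed to 2.93 in distal and 9.65 in proximal, which is roughly 46991 to 118978 counts in a distal region and 214774 to 345649 in a proximal one. Limb mesenchyme markers were all listed (8 of 8, Prrx1 highest with a mean of 159 in the authors' deposited table). Blood markers were not (0 of 9), and those of endothelium, surface ectoderm and macrophages reached means of at most 0.592, 0.569 and 0.933 in the authors' deposited table. Muscle markers were listed for 15 of 16 genes, and 6 of them were called, all higher in proximal. Other marker lists held calls too. Of limb mesenchyme genes, Lhx2 and Msx1 were higher in distal and Pdgfra in proximal. Sox9, higher in distal, was the 1 call among 8 listed cartilage genes, and Jun, higher in proximal, the 1 among 9 stress genes. The median log2 changes of these lists in the authors' deposited table were 0.21 (limb mesenchyme), -0.13 (cartilage) and -0.25 (stress). In such areas fewer cells of a type and less RNA per cell cannot be told apart.

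The binding core of HIF is read in DNA as ACGTG or GCGTG. The RefSeq promoters of 3 genes are shown because the results below turn on them: P4ha2 with the smallest p, Hif1a with the next, and Ldha, the most abundant of the 39. Each is the 250 bases before the start site on the plus strand of GRCm38.p6, written in lower case with every core in capitals, where CACGT and CACGC are the same letters read on the other strand. The windows are chr11:54100674-54100923 for P4ha2, chr12:73907617-73907866 for Hif1a and chr7:46845554-46845803 for the first of the Ldha starts. In the GENCODE M21 annotation these genes begin before their windows, at 54100095, 73901375 and 46841475. The windows therefore lie inside the annotated genes, and the earlier starts are not shown.
P4ha2: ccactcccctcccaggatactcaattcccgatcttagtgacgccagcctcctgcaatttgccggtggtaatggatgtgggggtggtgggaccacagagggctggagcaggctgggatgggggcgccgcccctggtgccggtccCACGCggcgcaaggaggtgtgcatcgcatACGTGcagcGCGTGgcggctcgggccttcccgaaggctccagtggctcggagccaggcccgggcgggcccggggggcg
Hif1a: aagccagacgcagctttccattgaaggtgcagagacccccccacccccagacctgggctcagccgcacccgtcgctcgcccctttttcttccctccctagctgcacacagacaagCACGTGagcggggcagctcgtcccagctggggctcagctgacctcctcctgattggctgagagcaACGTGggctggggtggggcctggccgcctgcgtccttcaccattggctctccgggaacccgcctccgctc
Ldha: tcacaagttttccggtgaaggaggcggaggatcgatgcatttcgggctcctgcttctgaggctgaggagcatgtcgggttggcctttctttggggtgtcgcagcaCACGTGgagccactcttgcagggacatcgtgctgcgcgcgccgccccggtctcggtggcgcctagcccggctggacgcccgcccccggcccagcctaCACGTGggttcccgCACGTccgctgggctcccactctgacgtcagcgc
The P4ha2 window holds 3 cores, starting 107, 78 and 69 bases before the start site. In the Hif1a window there are also 3, of which the pair at 135 and 134 bases overlaps as the palindrome CACGTG. The Ldha window holds 5 matches, 4 of them in 2 such palindromes, which start at 145 and 48 bases. Over the 300 bases that the promoter table holds for each start (250 before and 50 after), a core was found on either strand in 35 of the 39 genes with an entry (89.7%), in 65.5% of the 10989 listed genes with an entry and in 43.8% of all 32851 promoters. Those 39 entries include Car9, and Slc2a3 had none. Genes with several promoters had more than 1 chance to hold a core. A match is a description of letters and shows no binding.

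Glucose enters cells through transporters and is trapped by hexokinase. Slc2a1, the widespread transporter GLUT1, had 15.6, 8.59, 19.7, 11.8 and 9.13 normalized counts in the distal regions (13.0 ± 4.68, SD, n = 5) and 13.7, 6.79, 13.8, 8.93 and 7.99 in the proximal regions (10.2 ± 3.28, SD, n = 5). Region values are given in order of decreasing depth throughout. The sides overlapped, and the log2 change in the authors' deposited table was 0.36 with a standard error of 0.37. Slc2a3, the high-affinity transporter GLUT3, had log2 0.19 (standard error 0.63) in the authors' deposited table, from 11 distal and 33 proximal counts. The hexokinases lay on both sides of 0, with Hk1 at -0.35 (standard error 0.64) and Hk2, the inducible form, at 0.04 (standard error 0.58) in the authors' deposited table. Among these 4 genes 0 were called.

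The 14 enzymes after hexokinase had a median log2 change of 0.03 by the authors' deposited table, 8 above 0 and 6 below. Gpi1, which turns glucose 6-phosphate into fructose 6-phosphate, had the smallest p of the 14 (0.120), with log2 0.82 and a standard error of 0.53 in the authors' deposited table. It stood at 8.41, 2.86, 3.58, 7.84 and 18.3 in distal and 6.20, 4.98, 3.07, 4.47 and 2.00 in proximal. Of the distal regions 3 lay above every proximal region, the shallowest being the highest, from 6 counts, and the other 2 lay inside the proximal range. Pgk1, the first enzyme of the pathway to make ATP, had 1.20, 4.30, 3.58, 1.9596 and 3.04 in distal and 1.65, 2.71, 0.511, 0.638 and 1.33 in proximal. Those values rest on 8 and 14 counts, and the log2 change, 0.97 in the authors' deposited table, had a standard error of 0.81.

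The phosphofructokinases, which catalyse the committed step, were near 0 in the authors' deposited table, with log2 0.01 for Pfkl, -0.08 for Pfkm and 0.19 for Pfkp and standard errors of 0.61, 0.55 and 0.84. Aldoa, the main aldolase, had 12.0, 5.73, 10.7, 1.9596 and 15.2 in distal and 13.2, 15.8, 8.18, 12.8 and 8.65 in proximal. The authors' deposited table gave it log2 -0.41 with a standard error of 0.41. The distal regions of Aldoa covered a wider range than the proximal ones and contained 4 of the 5 proximal values. Aldoc, another aldolase, had 0 distal and 5 proximal counts. A distal count of 0 allows a mean of up to 1.02, above the proximal level of 0.518 per unit of depth, so no fold or bound is given for it.

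Tpi1, which interconverts the triose phosphates, and Gapdh, which oxidises them, had log2 0.48 (standard error 0.83) and 0.32 (standard error 0.73) in the authors' deposited table. Gapdh stood at 4.81, 8.59, 0, 0 and 3.04 in distal and 1.65, 4.07, 1.53, 3.83 and 3.33 in proximal. In 2 distal regions there was no Gapdh count and the second deepest had 6, the highest level of the 10 regions. Without that region the log2 change was -0.42. Pgam1, the mutase between the glycerate phosphates, had log2 0.58 with a standard error of 0.57 in the authors' deposited table. Of its distal regions, 2 (2.86 and 3.58) lay inside the proximal range of 2.00 to 4.47.

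Pkm, pyruvate kinase, makes pyruvate at the last step. It had 15.6, 15.8, 1.79, 21.6 and 6.09 in distal and 18.6, 13.1, 4.60, 17.2 and 6.66 in proximal, so the spread was wide and alike on both sides. The log2 change of Pkm in the authors' deposited table was 0.05 with a standard error of 0.50. The enolases all had negative values there: the authors' deposited table listed Eno1, the widespread form, at -0.55 with a standard error of 1.11. Eno2 and Eno3, the forms of nerve and muscle, had 1 distal count each, against 15 and 17 proximal counts. Per unit of depth the ratio of distal to proximal was 0.220 for Eno2 (95% interval 0.00522 to 1.43) and 0.194 for Eno3 (0.00464 to 1.24), intervals that cover counting error only. Both intervals hold 1.

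Muscle markers are given beside Eno3, the muscle form. Its distal values were 0, 0, 0, 1.9596 and 0 and its proximal values 3.31, 1.36, 0.511, 2.55 and 0.666. The summed normalized counts of 14 muscle markers ran from 0 to 19.6 over the distal regions and from 54.9 to 129 over the proximal regions, without overlap. In the same order of depth, the muscle sums of the proximal regions were 94.7, 129, 64.4, 54.9 and 116. The proximal Eno3 values rest on only 8, 3, 1, 4 and 1 counts. Another muscle marker, Actc1 (mean 39.9), was left out of these sums, as its regions were not recovered. The part of the muscle markers in the Eno3 values was not tested.

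**Figure D1:**
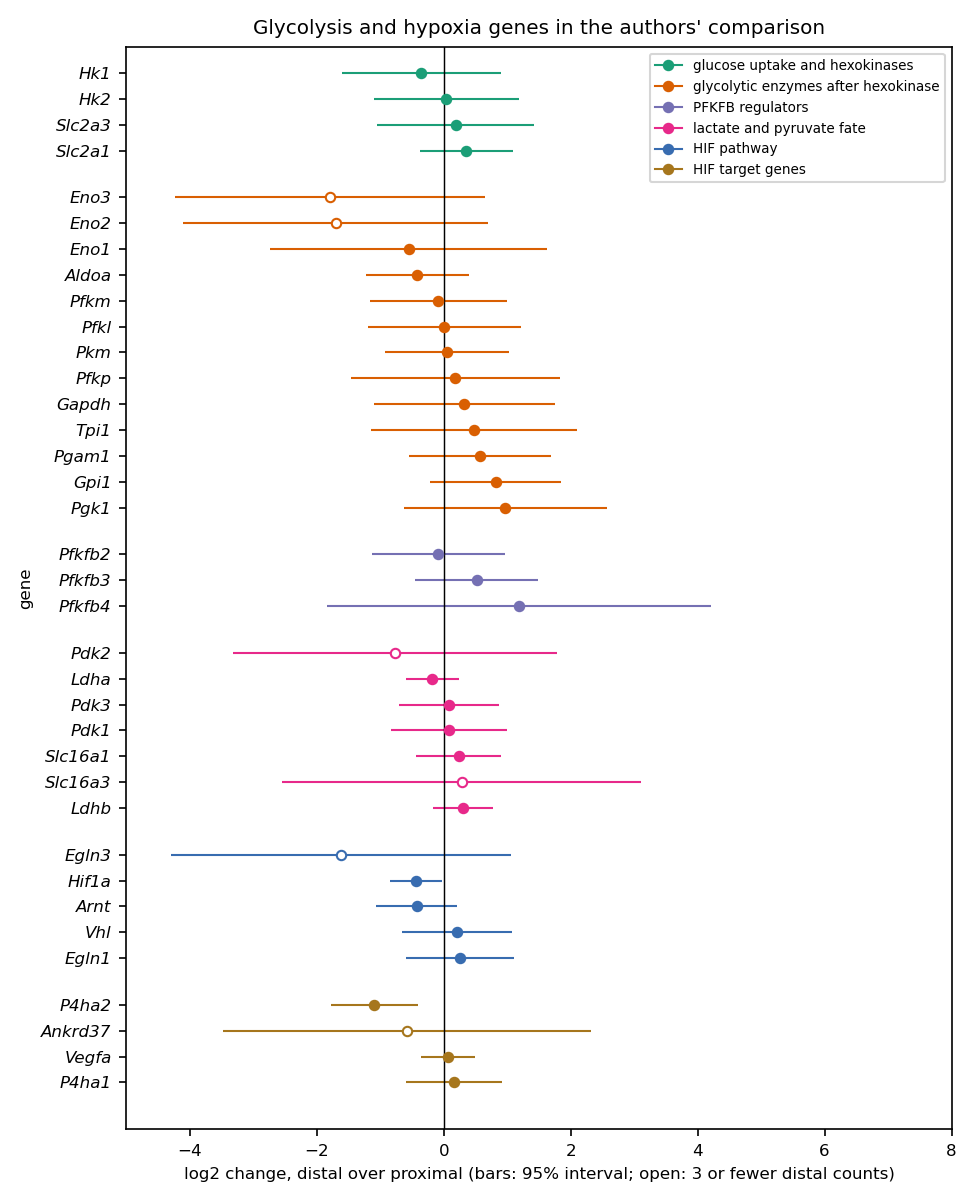
Log2 change of each gene (distal over proximal, from the authors' deposited table) on the horizontal axis, with bars for the 95% interval, by role; open points mark 3 or fewer distal counts, and Aldoc, with no distal count, and Adm and Bnip3, with 3 or fewer counts on each side, are left out. The bars of P4ha2 and Hif1a lie wholly below 0, and all the others cross it.

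Summed over the 14 enzymes, the regions gave 63.7, 67.3, 34.0, 62.7 and 63.9 normalized counts in distal (58.3 ± 13.7, SD, n = 5) and 68.3, 70.1, 35.3, 65.1 and 41.9 in proximal (56.1 ± 16.3, SD, n = 5). The sides overlapped, with 1 low region in distal and 2 in proximal. Regions were not recovered for Ldha, Hif1a, Vegfa and Ldhb, which had the highest means of the 39. Across the 35 genes with recovered regions the sums ran from 167 to 204 in distal and from 166 to 209 in proximal. The ranges of these sums overlapped nearly from end to end.

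The PFKFB enzymes make and remove the sugar phosphate that activates phosphofructokinase. Pfkfb3, the form with the strongest kinase activity, had 6.01, 5.73, 1.79, 11.8 and 9.13 in distal and 4.14, 3.17, 6.13, 5.11 and 4.66 in proximal. The log2 change was 0.52 with a standard error of 0.50 in the authors' deposited table. Pfkfb2 had 3.61, 4.30, 3.58, 13.7 and 0 in distal and between 4.14 and 6.38 in proximal, with log2 -0.08 and a standard error of 0.53 in the authors' deposited table. The fourth distal region was the highest of the 10 for both, and Pfkfb4 had its highest value there as well (3.92, from 2 counts). For the 3 genes together that region gave 29.4, while the other 9 regions ranged from 8.59 to 12.1. Without it the log2 change of Pfkfb2 was -0.75.

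Pfkfb4 was sparse, with 4 distal and 7 proximal counts, and 6 of the latter came from the deepest proximal region. The authors' deposited table gave it log2 1.18 with a standard error of 1.54. Without that proximal region it was 3.12.

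**Figure D2:**
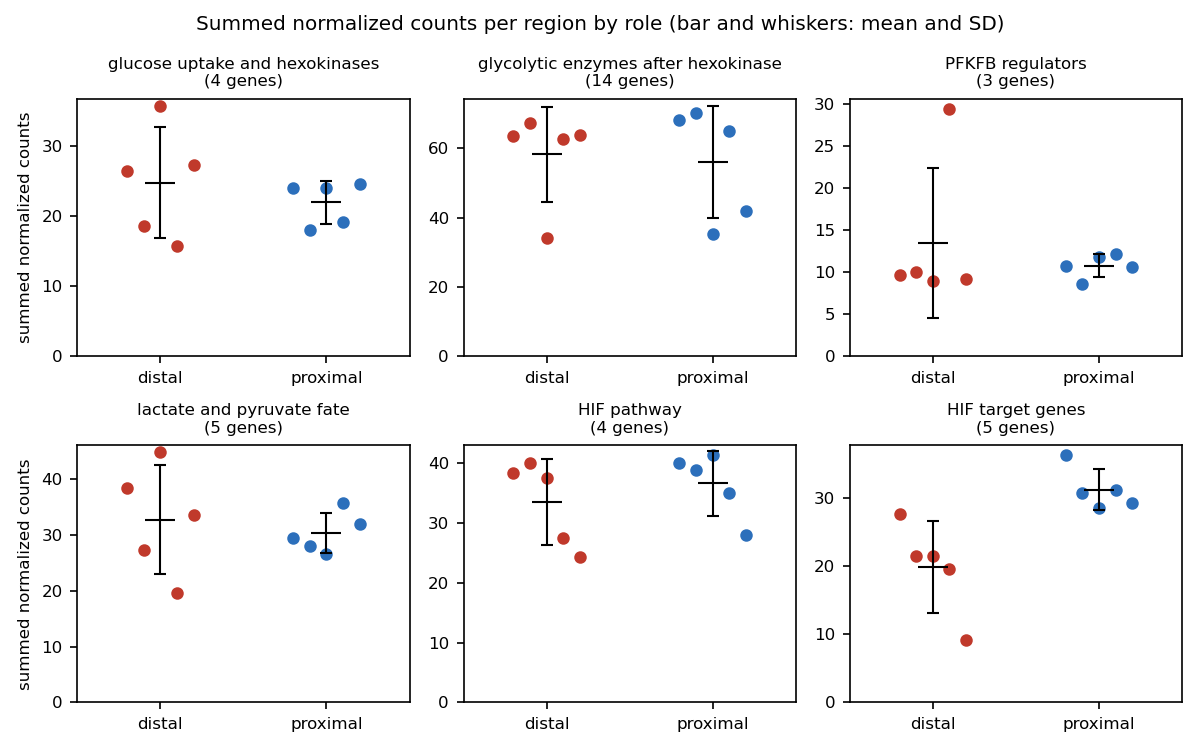
Summed normalized counts (vertical axis) in each of 5 distal and 5 proximal regions for the genes of each role with recovered regions; points are regions in order of decreasing depth, and the bar and whiskers give mean and SD. The sums leave out Vegfa, Hif1a, Ldha and Ldhb, whose regions were not recovered. They overlap between the sides for every role except the 5 HIF target genes summed here. For these, distal regions reach 27.6 and proximal regions start at 28.6, of which P4ha2 alone gives 16.3 to 24.8 per proximal region. Vegfa, the most abundant HIF target of the set, had a mean of 33.8 and log2 0.07 in the authors' deposited table.

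Per kb of transcript, lactate dehydrogenase subunits were the most abundant of the set. Ldha, whose subunit favours making lactate, had a mean of 49.9 in the authors' deposited table, with side means computed as 46.9 in distal and 53.0 in proximal. Its log2 change was -0.18 with a standard error of 0.21 in the authors' deposited table. Ldhb, whose subunit favours the reverse reaction, had a mean of 29.9 and log2 0.31 with a standard error of 0.24 in the authors' deposited table. The difference of Ldha minus Ldhb was -0.49 on the log2 scale (95% interval -1.12 to 0.14), which holds 0. Region values were not recovered for either.

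Pyruvate dehydrogenase kinases inhibit pyruvate dehydrogenase, the enzyme that turns pyruvate into acetyl-CoA in the mitochondrion. Pdk1, a HIF target, had log2 0.09 (standard error 0.46) and Pdk3 0.08 (standard error 0.40) in the authors' deposited table. Pdk3 had 10.8, 10.0, 10.7, 3.92 and 9.13 in distal and 9.10, 8.14, 11.2, 8.30 and 5.99 in proximal, with the fourth distal region below all the others. Pdk2 had 2 distal and 12 proximal counts, a ratio per unit of depth of 0.549 (95% interval 0.0597 to 2.47).

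Lactate leaves and enters cells through monocarboxylate transporters. Slc16a1 (MCT1) had 19.2, 11.5, 21.5, 11.8 and 12.2 in distal (15.2 ± 4.76, SD, n = 5) and 12.0, 12.2, 7.67, 17.9 and 17.3 in proximal (13.4 ± 4.23, SD, n = 5). The sides overlapped, with log2 0.23 and a standard error of 0.34 in the authors' deposited table. Slc16a3 (MCT4), the exporter induced by low oxygen, was sparse, with 2 distal and 6 proximal counts and a ratio per unit of depth of 1.10 (95% interval 0.108 to 6.15). Both distal counts of Slc16a3 came from 1 region.

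Both HIF subunits had log2 changes below 0, and neither was called. The authors' deposited table listed Hif1a at a mean of 42.4 and log2 -0.44 (standard error 0.21), with side means computed as 36.0 in distal and 48.8 in proximal. The unadjusted p was 0.0345 and the adjusted p 0.790 in the authors' deposited table. Its partner Arnt had 14.4, 11.5, 12.5, 15.7 and 9.13 in distal (12.6 ± 2.56, SD, n = 5) and 18.6, 20.4, 11.8, 15.96 and 20.0 in proximal (17.3 ± 3.56, SD, n = 5). For Arnt, 4 of 5 proximal regions lay above every distal region and 1 lay among them. The log2 change of Arnt was -0.43 with a standard error of 0.32 and an unadjusted p of 0.189 in the authors' deposited table.

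Among Egln1, Egln3 and Vhl, which mark or remove the alpha subunit, there was no call either. Egln1, the main oxygen-sensing hydroxylase, had log2 0.26 (standard error 0.44) and Vhl, the recognition part of the ubiquitin ligase, 0.21 (standard error 0.44) in the authors' deposited table. Vhl was the more even of these, with 9.61, 7.16, 7.16, 5.88 and 6.09 in distal and 5.38, 6.79, 8.18, 7.02 and 4.66 in proximal. Egln3, a hydroxylase that is itself induced by HIF, had 1 distal and 16 proximal counts. Its ratio per unit of depth was 0.206 (95% interval 0.00491 to 1.33), and 9 of the 16 came from the deepest proximal region. Over the 5 genes the median log2 change was -0.43 in the authors' deposited table, and it was -0.11 without Egln3, the 1 member with a mean under 1.

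P4ha2 stood furthest apart. It encodes an alpha subunit of collagen prolyl 4-hydroxylase, which hydroxylates proline in new collagen chains, and lies at chr11:54100095-54131665 on the plus strand (ENSMUSG00000018906). The distal regions had 12.0, 12.9, 10.7, 5.88 and 3.04 normalized counts (8.91 ± 4.26, SD, n = 5), from 29 counts. The proximal regions had 24.8, 16.3, 21.5, 23.0 and 18.0 (20.7 ± 3.52, SD, n = 5), from 201 counts. Every proximal region lay above every distal region, and within distal the 2 shallowest regions were the lowest. P4ha2 was picked for the smallest p on these same regions, which favours such a separation. The share of all genes without overlap was not computed. The log2 change of P4ha2 in the authors' deposited table was -1.09 with a standard error of 0.35, which puts proximal 2.13-fold above distal. The unadjusted p was 0.00183 and the adjusted p 0.141 in the authors' deposited table, so the difference did not pass the threshold. Leaving out each region in turn gave log2 changes of P4ha2 from -1.24 to -0.96. Adjusted only over the genes with a mean of at least 10, its p was 0.0483, and over all listed genes it was 0.131. The summed muscle markers above did not overlap between the sides either, and Pdgfra and Jun were also called higher in proximal. The part of these in the P4ha2 values was not tested.

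P4ha1, which encodes another alpha subunit and is the better known HIF target, did not show that pattern. It had 14.4, 8.59, 8.95, 13.7 and 6.09 in distal (10.4 ± 3.58, SD, n = 5) and 10.3, 13.1, 7.16, 7.02 and 9.99 in proximal (9.52 ± 2.53, SD, n = 5). The sides overlapped, with log2 0.16 and a standard error of 0.38 in the authors' deposited table. The difference of P4ha1 minus P4ha2 was 1.26 on the log2 scale (standard error 0.52, 95% interval 0.24 to 2.27). P4ha2 was picked out of the set with its value known, so that interval is a description.

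**Figure D3:**
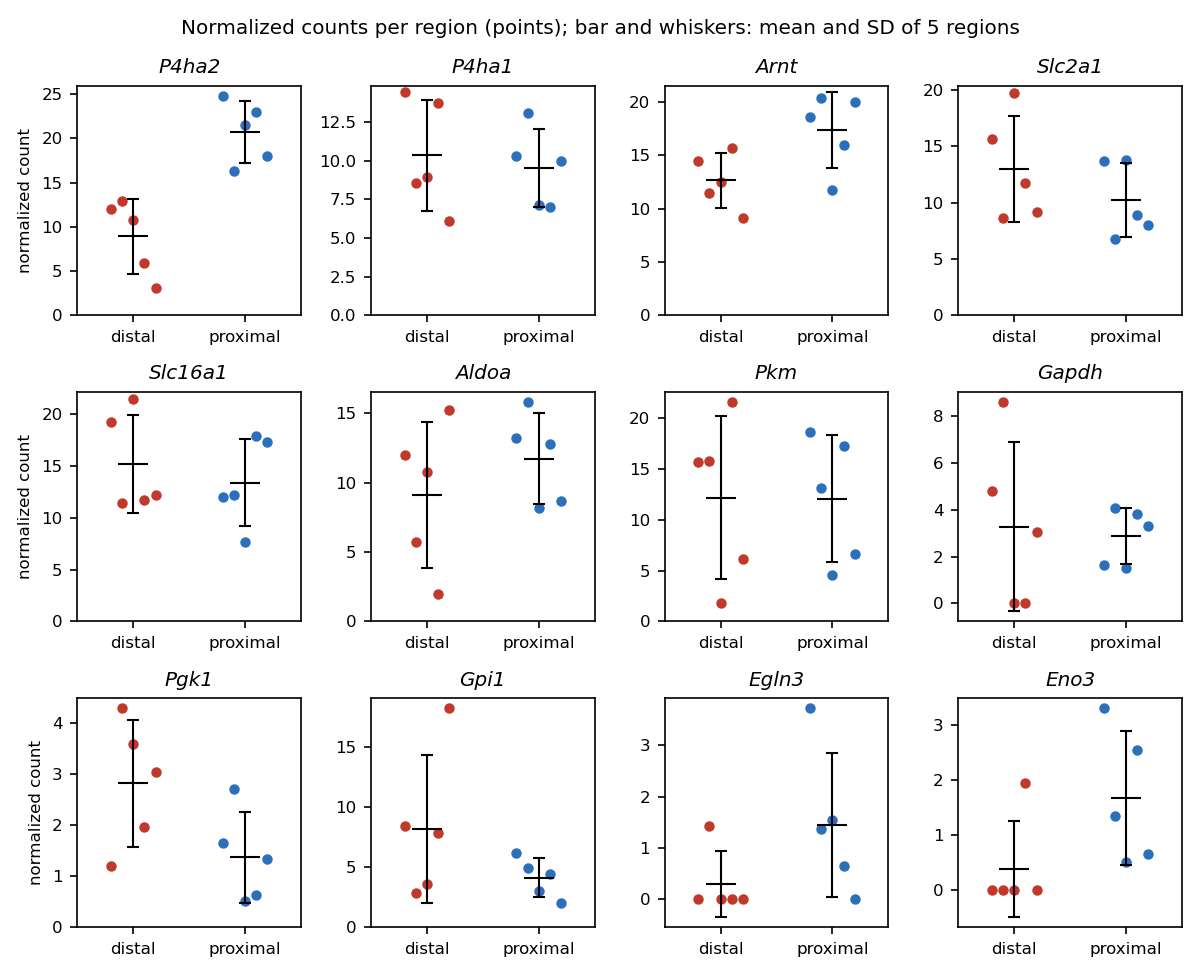
Normalized counts (vertical axis, a scale for each gene) of 12 genes in the 5 distal and 5 proximal regions; points are regions in order of decreasing depth, and the bar and whiskers give mean and SD. P4ha2, picked for the smallest p of the 39, is the panel in which every proximal region (16.3 to 24.8) lies above every distal region (3.04 to 12.9).

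Vegfa, which draws in vessels, had the highest mean of the 6 listed genes grouped here as HIF targets, 33.8, and log2 0.07 in the authors' deposited table. Its standard error was 0.22, and the 95% interval ran from -0.36 to 0.49. The other targets were close to the limit of detection. Ankrd37 had 1 distal and 7 proximal counts, a ratio per unit of depth of 0.471 (95% interval 0.0104 to 3.67). Bnip3, which drives the removal of mitochondria, had 1 distal and 2 proximal counts. Adm, the vessel-dilating peptide adrenomedullin, had 0 distal and 1 proximal. No difference was detectable for Adm or Bnip3 at this depth. The authors' deposited table lists both with a positive log2 change (1.19 each), against the direction of the Adm count, and for genes with so few counts the sign carries no direction here.

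Families with more than 1 form were compared pair by pair. Of 19 pairs, 18 had a 95% interval of the difference in log2 change that holds 0, and P4ha1 with P4ha2 was the exception. The pair of Aldoa and Aldoc uses a fitted value for a gene with no distal count. The intervals were wide: for Hk1 minus Hk2 the difference was -0.39 (-2.09 to 1.301), for Slc2a1 minus Slc2a3 0.17 (-1.27 to 1.61) and for Pfkl minus Pfkm 0.09 (-1.52 to 1.70). For Pdk1 minus Pdk3 it was 0.00 (-1.19 to 1.20). These do not show that the forms acted alike.

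**Figure D4:**
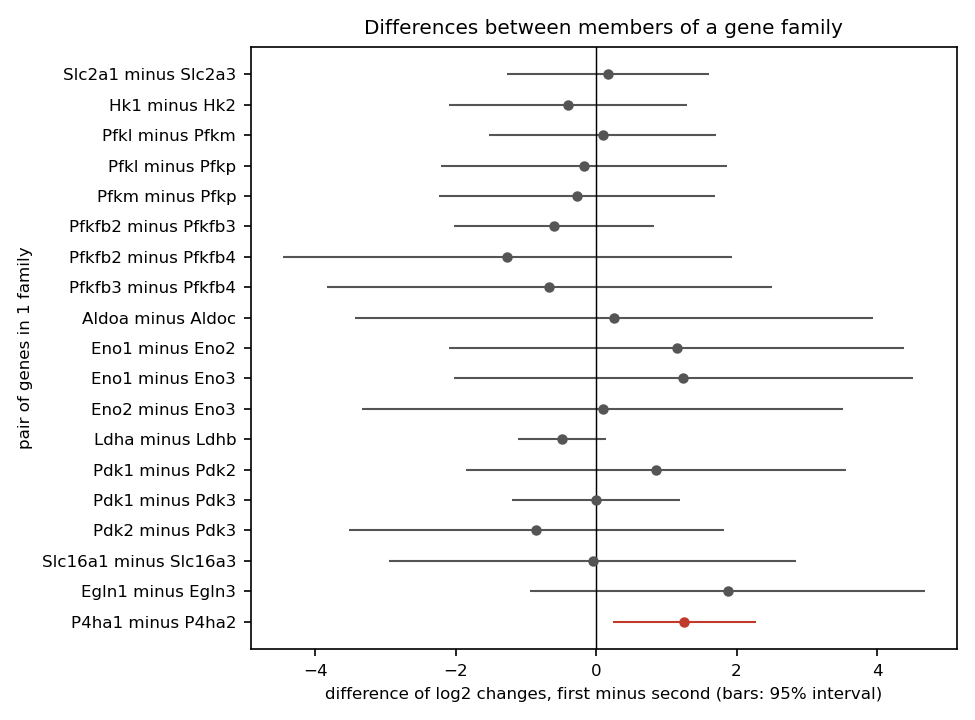
Difference in log2 change (horizontal axis, first gene minus second) for 19 pairs of genes of 1 family, with bars for the 95% interval from the deposited standard errors taken as independent. P4ha1 minus P4ha2, in red, is the pair whose interval (0.24 to 2.27) does not reach 0.

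Precision differed widely among the 39. The standard errors of the log2 changes ran from 0.21 to 3.16 in the authors' deposited table. For 8 genes (Hif1a, Ldha, Ldhb, Vegfa, Pdk1, Pdk3, P4ha1 and Slc16a1) the 95% interval lay within 1 of 0 on the log2 scale, so a change of 2-fold or more lay outside it. For 11 genes the interval was wider than 4. In 17 genes every one of the 10 regions had a count, and 9 genes had 3 distal counts or fewer. With each region left out in turn, 13 of the 35 genes with recovered regions changed sign, P4ha1, Gapdh and Pkm among them, and P4ha2, Arnt, Slc2a1 and Gpi1 kept theirs.

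Levels between genes were compared as mean normalized counts per kb of the longest coding transcript. Where reads lie along transcripts is not given in the sources used here. The order per kb holds only if counts rise with transcript length, which was not tested. Ldha (27.5 per kb) and Ldhb (22.9) were the highest, beside a median of 1.05 over the listed genes. Vegfa had 9.78, Hif1a 8.97, Aldoa 6.73, P4ha2 6.54 and Pkm 4.98. Gapdh, which is often taken as a highly abundant transcript, had 2.17 per kb, Pgk1 1.15 and Eno1 0.689. The hexokinases were near each other, Hk1 at 0.865 and Hk2 at 0.770, and Adm was the lowest at 0.0325.

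Near-identical copies elsewhere in the genome make some of these levels uncertain, since reads can be split between loci or left out. Gapdh had 89 such copies, 85 of them annotated as pseudogenes. Eno1, Ldha and Bnip3 had 5 each, Aldoa, Pkm and Tpi1 had 2 each, and Gpi1 and Ldhb had 1 each. P4ha2, P4ha1, Hif1a, Arnt and Vegfa had none.

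Related genes outside the 40 were read the same way. In the authors' deposited table, 4 of the lists held no call (0 of 23 other glycolysis and pyruvate genes, 0 of 16 other HIF pathway genes, 0 of 7 pentose phosphate genes and 0 of 24 cytochrome oxidase and ATP synthase genes), with 1, 1, 0 and 3 of them at an unadjusted p under 0.05. At that limit there were also 4 of 38 other HIF targets and 1 of 17 genes of the tricarboxylic acid cycle, where 6.07% of all genes passed it. Of 38 other HIF targets 1 was called, Mif, a cytokine gene, with the higher level on the distal side in the authors' deposited table (log2 1.16, standard error 0.19, adjusted p 6.95e-07). Mif has a copy at 99.6% identity, so its value is uncertain. Of 17 genes of the tricarboxylic acid cycle 1 was called, Sdhd, a membrane anchor of succinate dehydrogenase, also higher on the distal side in the authors' deposited table (log2 1.37, standard error 0.30, adjusted p 0.000993). The lists had median log2 changes from -0.09 (other HIF targets) to 0.26 (pentose phosphate) in the authors' deposited table. The gene with the highest mean was Atp5g3 (101) among cytochrome oxidase and ATP synthase genes, Wsb1 (75.5) among other HIF targets, Elob (58.0) in the HIF pathway list and Cs (51.1) in the cycle. Their log2 changes were 0.21, -0.16, -0.17 and 0.08 in the authors' deposited table, and none was called. Atp5b, with a mean of 95.1, had log2 0.37 (standard error 0.15) in the authors' deposited table (unadjusted p 0.0156, adjusted p 0.516) and was not called.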

How the data were processed

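The members and all gene lists were chosen with earlier results of these data known. The file holds no table of counts; its mean is a signal in normalized counts, which the authors deposited averaged over regions. Per the file headers, which follow DESeq2, the authors fitted a log2 change with a standard error, coded distal over proximal. The score that the authors deposited is the log2 change divided by its standard error (largest gap 1.91e-06), and the p-value and adjusted p-value are as deposited by the authors. The builds mm10 and GRCm38 are named in the submitters' processing notes, and the aligner, the counting and the annotation are not given in the sources used here.

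Counts per region were recovered from the deposited values. The lowest means repeat on 10 steps, each the worth of 1 count in 1 region, which gives 10 size factors, and the direction of the log2 change gives a region's side. For each member with a mean under 16, sets of whole-number counts that gave the deposited mean were searched. To each set a negative binomial model was fitted, whose means could not go below 0.5. The dispersion was free, and was chosen for each set to give the deposited standard error. A set was kept where the log2 change and the standard error both matched the deposited values to within 5e-09. Each of the 35 members searched had 1 such set. For all but the sparsest members only counts near the expected ones were searched, so a set outside that window was not looked for. Tested on simulated data, 24 of 24 genes were recovered. They were drawn with the same fit and size factors and a single dispersion. Their intended means lay below those of the most abundant members searched, such as P4ha2 (14.8) and Arnt (15.0), which the simulation does not cover. Regions are numbered by depth, since their barcode numbers are not known. For Ldha, Ldhb, Vegfa and Hif1a the side means were computed from the mean and the log2 change. Done likewise for 25 members with at least 20 counts in all, such means were off by a median of 1.67% and at most 12.4%. Leaving out a region used the same fit with the dispersion held. Floors are 3 counts on a side, a mean of 1.02 in distal and 0.311 in proximal, and floors and count ratios (exact binomial interval) cover counting error only. Other 95% intervals are 1.96 standard errors.

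All 40 members are named by rule. Of other lists, genes with an adjusted p under 0.05 or among the 3 with the highest means could be named. Positions, lengths and copies come from GENCODE M21 (GRCm38). A copy is another gene matching the last 300 bases of a coding transcript across 200 bases or more with an identity of at least 95% (BLAST 2.17.0). Scripts used Python 3.11.15, numpy 2.4.6, scipy 1.17.1 and pandas 2.3.3.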

Additional observations from a re-analysis of the deposited data

Results flagged for a closer look

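Of 57 sides of a gene with at least 5 counts, 2 had a region far from the other 4 (gap over range above 0.71), where chance gives about 1 in 20. Pdk3 in distal had its lowest region at 3.92 normalized counts, from 2 counts, while its other distal regions ranged from 9.13 to 10.8. Pfkfb4 in proximal had its highest region at 2.48 normalized counts, from 6 counts, and the next was at 0.638.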

How the results depend on the processing

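Copies, and regions left out for medians, were alternatives chosen after seeing the data. The number of members called stayed at 0 under 6 of 7 alternatives. The stricter of them (adjusted p under 0.01, an absolute log2 change of at least 1 as well, members without a copy) could only give 0. Adjusting only over the listed genes with a mean of at least 10, a set that leaves out sparse genes, gave 1, P4ha2. Its adjusted p was 0.0793 with centred log2 changes and 0.131 over the listed genes. The HIF pathway median moved from -0.43 to -0.11 at a mean of at least 1 and to -0.29 as a weighted mean, and that of HIF targets from 0.12 to -0.51 at a mean of at least 10 (2 genes) and to -0.17 as a weighted mean. With floor genes at their bound it was 0.03. The PFKFB median at a mean of at least 10 had no value. The promoter share was 66.7% with ACGTG alone, beside 28.5% of listed genes. With each region left out, medians ran from -0.01 to 0.12 for all members, -0.08 to 0.34 for uptake, -0.22 to 0.33 for enzymes, 0.23 to 0.65 for PFKFB, -0.01 to 0.30 for lactate, -0.44 to -0.36 for the HIF pathway and 0.03 to 0.19 for HIF targets. Centring by 0.07 changed the sign of 4 members. No paired analysis was possible because the labels tie no distal region to a proximal region of the same organoid, and the recovered regions carry no number. Depth limits distal most, where 3 counts are a mean of 1.02.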
